A study of Homo sapiens with 12 samples.

Results

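The genes of homologous recombination and of the Fanconi anemia pathway were followed in HCCC9810 and RBE, established human lines of intrahepatic cholangiocarcinoma, with and without anlotinib, a small molecule that blocks several receptor tyrosine kinases. The 34 members were chosen by symbol in the deposited count table, which lists 58216 genes, and all 34 were among the 18035 genes with enough counts to be tested. The 4 groups were HCCC9810 control, HCCC9810 with 5 µM anlotinib, RBE control and RBE with 5 µM anlotinib, all collected at 24 h with 3 libraries each, described by the submitters as biological replicates. All cells were grown in the same medium with fetal bovine serum. The drug was dissolved in dimethyl sulfoxide, which came to 0.1% in the medium, and whether the control cultures received this solvent is not given in the sources used here. Each line is a single cell line grown in culture, without the stroma, vessels or immune cells of a tumour. As a check of the cell type, 7 markers of biliary epithelium summed to between 1350 and 3970 RPKM (the deposited counts scaled by gene length and library total) in every library, and KRT19 reached at least 275 RPKM throughout. CDH1 (E-cadherin) was at most 0.0598 RPKM in HCCC9810 and between 11.7 and 14.4 RPKM in RBE. Markers of other cell types were low: the summed levels reached at most 8.89 RPKM for hepatocytes, 14.2 RPKM for fibroblasts (nearly all LUM, at up to 13.7 RPKM in HCCC9810), 4.52 RPKM for endothelium and 0.914 RPKM for leukocytes. In HCCC9810 the biliary sum went from 3070 to 3970 RPKM in control to 1650 to 1950 RPKM in treated libraries and LUM from 8.90 to 13.7 RPKM to 4.14 to 6.05 RPKM, and their part in the member results was not tested.

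Every direction given here rests on the words for control and treatment in the column headers of the deposited table. The numbers in those headers go against the numbers in the sample titles, where each belongs to the other treatment of the same line. Had the titles been followed, every effect of anlotinib would carry the opposite sign at the same size, and the control comparison would be between treated cells. Libraries are called by their header numbers, which are 1 to 3 for RBE control, 4 to 6 for RBE anlotinib, 7 to 9 for HCCC9810 control and 10 to 12 for HCCC9810 anlotinib.

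Homologous recombination repairs DNA that is broken on both strands by copying the sister chromatid, and it acts in the S and G2 phases of the cell cycle. The broken end is sensed and resected, the BRCA proteins prepare the bared strand for pairing with its template, and helper proteins assist the pairing and resolve the joined molecules. The Fanconi pathway recognises crosslinks between the strands at stalled replication forks: a core complex attaches ubiquitin to the FANCD2 and FANCI clamp, which recruits nucleases and then recombination. The kinases ATM and ATR, with CHEK2 and CHEK1 below them, signal such damage to the cell cycle. Transcription of many of these genes peaks at the entry into S phase under E2F factors, and loss of the pathway sensitises tumour cells to platinum drugs and PARP inhibitors.

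The stretches around the starts of the genes are shown because many members fell together. RefSeq promoter windows on GRCh38.p14, from 250 bases before to 50 bases after 1 start per gene, were matched for 31 of the 34 members. The E2F core was searched on both strands as the letters TTCCCGC, as the letters TTGGCGC and as the letters TTCGCGC, and it was present in 17 of 31 member windows (54.8%), against 11.2% of 27305 windows of all genes. Among the 16846 windows within the GC range of the members (48.0% to 73.7%) the share was 13.9%. The letters were found in 12 of 21 members that were lower in either line (57.1%) and in 5 of the other 10, so the members that fell and those that did not held them at close shares. The cell cycle element CHR (TTTGAA or TTTAAA, both strands) was present in 16.1% of member windows, 24.3% of all windows and 15.5% of those within the GC range of the members. It was found in 5 of the 21 members that were lower in either line and in 0 of the other 10. CCAAT (both strands) was present in 41.9% of member windows and 35.7% of all windows, also within that GC range, and in 8 of the 21 and 5 of the other 10. These matches describe letters only, and letters at any other start of a gene were not counted. For the 12 members with a lower call in a line and an E2F core, the match nearest the start is printed 5′ to 3′ on the strand of the gene, with 10 bases on each side and the core in capitals, so that a core on the other strand appears as its reverse complement.

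RAD51AP1 (chr12:4538859-4538885, plus strand): ctggttttggGCGGGAAttgaaaccgc
RAD54L (chr1:46247629-46247655, plus strand): cgcagcactaTTCCCGCctcttccttg
BARD1 (chr2:214809663-214809689, minus strand): cgtcccagacGCGGGAAgagcttggcc
BRIP1 (chr17:61863510-61863536, minus strand): ggggcgggagGCGGGAAttcgtctcgg
FANCA (chr16:89816610-89816636, minus strand): ggggctgtagGCGCCAAggccatgtcc
FANCC (chr9:95317738-95317764, minus strand): cgtcggaattTTCCCGCgacgccgcgg
FANCD2 (chr3:10026425-10026451, plus strand): gtcgggcctgGCGGGAAagtcgaaaac
FANCG (chr9:35080010-35080036, minus strand): ctcggtggaaGCGGGAAcccaggagga
BLM (chr15:90717339-90717365, plus strand): caagcttccgGCGGGAAgtgagccagg
EXO1 (chr1:241848199-241848225, plus strand): aggtcagcctTTCGCGCgctgtgtagg
XRCC2 (chr7:152676104-152676130, minus strand): ggcgttggtgGCGGGAAagttgagtct
EME1 (chr17:50373139-50373165, plus strand): cgggtcctcaGCGCCAAcaccaccgac

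The core began before the start in 6 of the 12, among them FANCD2 where it spans the start, and after it in 6, and in 9 it lay on the other strand. The 250 bases before the start of BRIP1, the member with the largest fall, are printed with the CHR and CCAAT letters of both strands in capitals (ATTGG and TTCAAA are the other strand). They held 3 CCAAT and 2 CHR matches, and the E2F core of BRIP1 began at base 3 after the start.

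BRIP1 (chr17:61863529-61863778, minus strand): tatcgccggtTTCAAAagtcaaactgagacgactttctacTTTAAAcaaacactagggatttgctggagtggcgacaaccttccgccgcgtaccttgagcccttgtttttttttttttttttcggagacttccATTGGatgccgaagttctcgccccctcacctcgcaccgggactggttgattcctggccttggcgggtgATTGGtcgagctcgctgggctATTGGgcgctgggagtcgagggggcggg

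Library totals ran from 15215193 to 40963529 counts, and member counts from 17 to 2984 per library. Levels per library are given as CPM, counts divided by the normalized library size. Replicates of a group differed mainly along a single axis (58.6% of the variance within groups, 11395 genes). The loadings of genes on it rose with their GC content (rho 0.752, Spearman, across genes, not replicates), and RBE anlotinib 6 and HCCC9810 control 7 lay farthest out on it. The members had a median GC content of 41.7% in the longest transcript against 48.6% over all tested genes. RBE anlotinib 6 was the lowest of its group for 24 of 34 members and HCCC9810 control 7 for 20 of 34. RBE control 3 and HCCC9810 anlotinib 10 were the lowest of their groups for 24 and 18 members.

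In HCCC9810 anlotinib lowered 15 of the 34 members and raised 2, MUS81 and EME1. The members called were 17 of 34, where 23.9% of all tested genes were called, and the share lowered was 44.1% against 12.8% of all genes (raised: 2 members, and 11.1% of all genes). The median log2 fold change of the members was -0.60 and that of all tested genes -0.05. In RBE 19 members were lowered, 55.9% of members where 17.7% of all tested genes were called in either direction, 8.32% lowered and 9.37% raised. None was raised in RBE by edgeR or DESeq2, and 1 member (PALB2) was higher at an unadjusted p below 0.05. The median there was also -0.60, against 0.02 over all genes. The 11 members lowered in both lines were BARD1, BLM, BRCA1, BRIP1, C1orf112, EXO1, FANCB, FANCG, FANCI, RAD51AP1 and XRCC2. They are 73.3% of the members lowered in HCCC9810 and 57.9% of those lowered in RBE, whereas the 318 genes lowered in both lines over the whole table are 13.8% and 21.2% of the lists. A lower level in a culture cannot tell fewer cells in a given state from less RNA per cell. Without RBE anlotinib 6 and HCCC9810 control 7, the count was 18 lowered and 2 raised in HCCC9810 and 19 lowered and 1 raised in RBE.

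**Figure D1:**
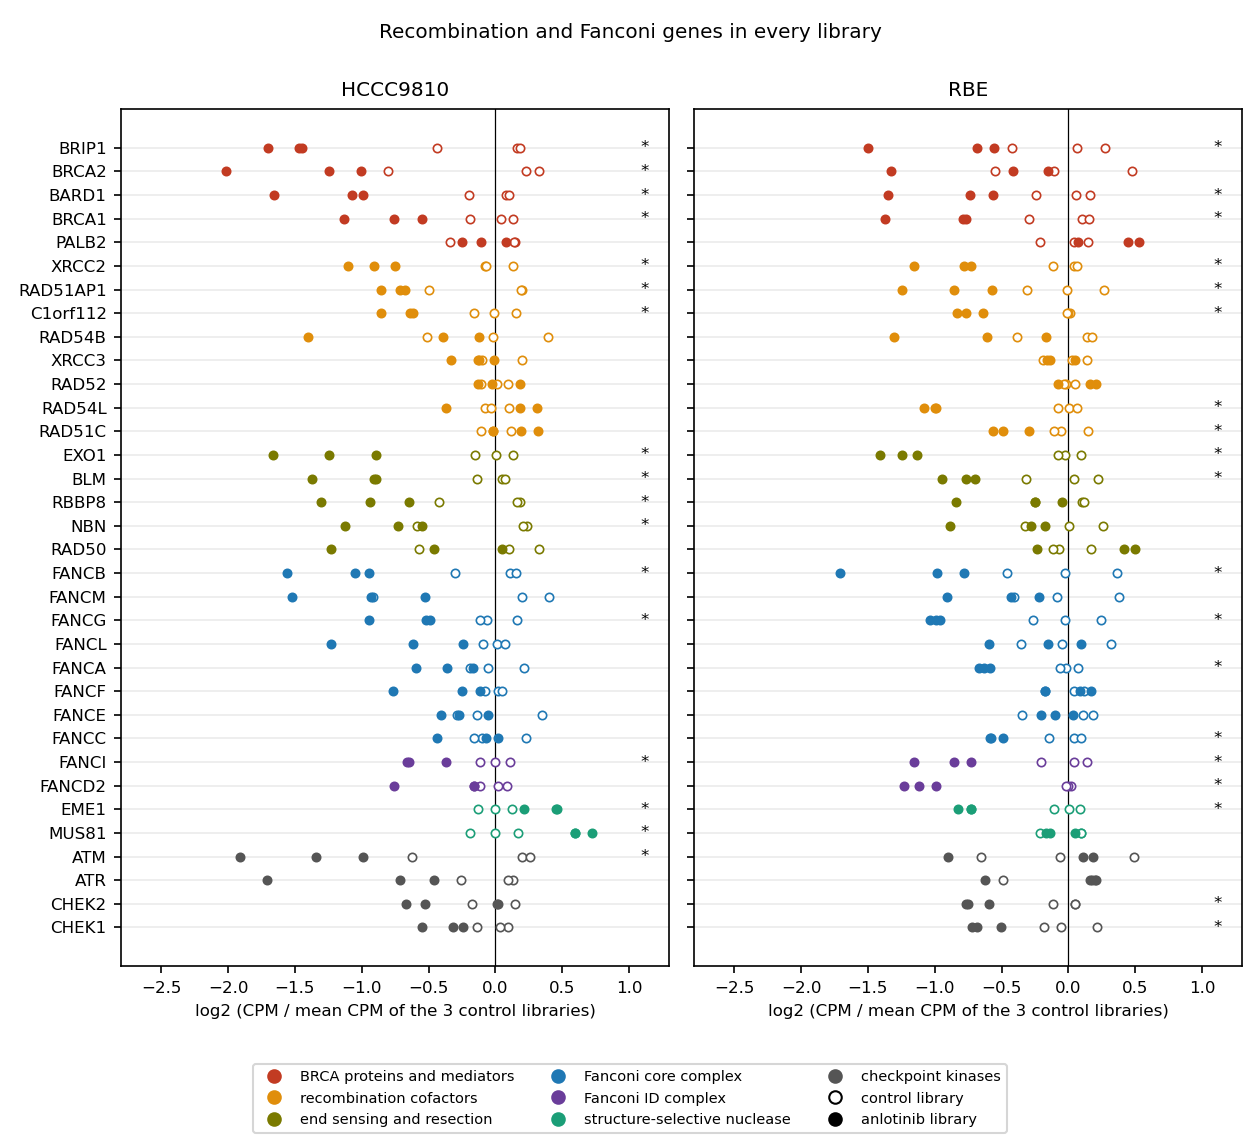
Level of the 34 members in every library, as log2 of CPM over the mean CPM of the 3 control libraries of the same line. Open points are control and filled points anlotinib libraries, colours are roles, and an asterisk marks an adjusted p below 0.05. In EXO1, BARD1, XRCC2, BRCA1 and FANCI all filled points lie left of all open points in both lines.

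Of the 5 BRCA proteins and mediators, 4 were lowered in HCCC9810 (median log2 fold change -1.21) and 3 in RBE (median -0.83). This count and those of the other roles below are to be read against the 12.8% and 8.32% of all tested genes lowered. BRIP1, a helicase that binds BRCA1 (chromosome 17, 61681266 to 61863521, minus strand, GRCh38), was at 27.7, 41.9 and 42.6 CPM in HCCC9810 control libraries and at 11.5, 13.5 and 13.7 CPM with anlotinib. The groups were well apart, and the log2 fold change of -1.53 ± 0.25 (SE) was the largest of any member in HCCC9810 (adjusted p = 0.000977). In RBE, BRIP1 was at 30.5, 35.3 and 21.8 CPM in control and at 19.9, 18.2 and 10.3 CPM in treated libraries. Here the lowest control lay just above the highest treated library, and the fall of -0.84 ± 0.24 passed at an adjusted p of 0.0275. That call ended with library totals as scaling (0.0749), without RBE control 1 (0.0728) and without RBE control 2 (0.0826). It also ended with limma on log2(RPKM + 1) (0.0745) or log2(RPKM + 0.1) (0.18).

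BRCA1, the ubiquitin ligase subunit that steers breaks to recombination (chromosome 17, 43044295 to 43170245, minus strand), was at 47.7, 59.6 and 55.9 CPM in HCCC9810 control and at 24.8, 32.2 and 37.2 CPM in HCCC9810 anlotinib libraries. In RBE it was at 68.6, 70.9 and 52.0 CPM in control and at 36.9, 37.5 and 24.7 CPM in treated libraries. The groups did not overlap in either line, with log2 fold changes of -0.79 ± 0.18 (adjusted p = 0.00693) and -0.94 ± 0.18 (adjusted p = 0.00229). BARD1, its partner in the ligase, was at 28.4, 34.3 and 34.9 CPM in HCCC9810 control and at 15.5, 10.3 and 16.4 CPM in treated libraries. The RBE libraries held 32.5, 35.0 and 26.4 CPM of BARD1 in control and 21.2, 18.8 and 12.3 CPM with anlotinib. All treated libraries were thus below all controls of their line for both subunits of the ligase, and BARD1 changed by -1.21 ± 0.21 (adjusted p = 0.00106) and -0.83 ± 0.20 (adjusted p = 0.0099).

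BRCA2, which prepares the resected strand for pairing, was called in HCCC9810 and not in RBE. Its HCCC9810 control libraries held 11.3, 24.8 and 23.1 CPM and the treated ones 4.88, 9.85 and 8.32 CPM. Control 7 was less than 2 CPM above the highest treated library, and the log2 fold change was -1.36 ± 0.40 (adjusted p = 0.0282). The call ended without control 8 (0.103), control 9 (0.0971), anlotinib 10 (0.0789) or anlotinib 12 (0.0671). It also ended without a low-count filter (0.126) and with limma on log2(RPKM + 1) (0.0557) or log2(RPKM + 0.1) (0.108). In RBE the control libraries held 20.4, 30.6 and 15 CPM and the treated ones 19.8, 16.5 and 8.78 CPM, which overlap. The change of -0.53 ± 0.37 did not pass (adjusted p = 0.377), although BRCA2 passed as lower after the GC and length correction (0.0416). The effects of the lines were not shown to differ (0.83 ± 0.54, 95% interval -0.22 to 1.89, adjusted p = 0.301). PALB2, the bridge between BRCA1 and BRCA2, did not pass in either line (-0.09 ± 0.17 and 0.37 ± 0.16). In RBE it passed as higher without anlotinib 6 (0.0386), without that library and HCCC9810 control 7 (0.0182) and after the GC and length correction (0.0303).

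Among the 8 recombination cofactors, 3 were lowered in HCCC9810 (RAD51AP1, XRCC2 and C1orf112) and 5 in RBE, where RAD54L and RAD51C joined them. XRCC2, which forms complexes with other recombination proteins, fell by 0.91 ± 0.14 on the log2 scale in HCCC9810 (45.0 ± 3.73 to 23.9 ± 2.90 CPM, SD, n = 3) and by 0.87 ± 0.14 in RBE (30.3 ± 2.08 to 16.5 ± 2.58 CPM). C1orf112, a partner of the enzyme FIGNL1, fell by 0.70 ± 0.12 and 0.75 ± 0.12. Of its exon bases, 23.3% are shared with METTL18 and SCYL3, neither of which passed. METTL18 stood at -0.80 ± 0.29 in HCCC9810, just short of the threshold (adjusted p = 0.0526), and at -0.12 ± 0.25 in RBE. SCYL3 stood at -0.45 ± 0.20 and 0.02 ± 0.19. RAD51AP1, which promotes the pairing of strands, fell by 0.75 ± 0.20 in HCCC9810 (adjusted p = 0.0172) and by 0.85 ± 0.20 in RBE. Its HCCC9810 call ended without control 8 (0.0681), control 9 (0.0665) or anlotinib 10 (0.0545). With limma on log2(RPKM + 0.1) the calls in HCCC9810 (0.105) and RBE (0.117) both ended. XRCC3, RAD52 and RAD54B did not pass in either line, with changes between -0.56 and 0.11. After the GC and length correction XRCC3 passed as lower in HCCC9810 (0.0145). XRCC3 shares 76.7% of its exon bases with KLC1 and RAD54B 59.1% with FSBP, so reads may have been counted for either gene.

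RAD54L, a motor protein that opens the template (chromosome 1, 46247688 to 46278473, plus strand), was at 22.9, 21.6 and 23.9 CPM in RBE control and at 10.8, 11.4 and 11.5 CPM in RBE anlotinib libraries. The groups were tight and far apart, a change of -1.02 ± 0.15 (adjusted p = 0.000286). In HCCC9810 the controls were at 13.4, 11.8 and 12.2 CPM and the treated libraries at 14.2, 9.67 and 15.5 CPM, on both sides of the controls (0.08 ± 0.16, adjusted p = 0.747). RAD51C, a recombination gene that is also a Fanconi gene, was at 28.6, 32.9 and 27.5 CPM in RBE control and at 21.1, 20.1 and 24.2 CPM in treated libraries. They did not overlap and the change was -0.44 ± 0.13 (adjusted p = 0.0233). The call ended without RBE control 1 (0.0693), control 2 (0.101), control 3 (0.0521), anlotinib 4 (0.115) or anlotinib 5 (0.137). It also ended with limma on log2(RPKM + 0.1) (0.0675). HCCC9810 held 27.2, 24.7 and 23.2 CPM of RAD51C in control and 24.7, 28.6 and 31.2 CPM in treated libraries, an overlap that did not pass (0.17 ± 0.13). Of the exon bases of RAD54L, 25.1% are shared with LRRC41, which did not pass in either line (-0.27 ± 0.11 and -0.09 ± 0.11).

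Of the 5 genes of end sensing and resection, 4 were lowered in HCCC9810 (EXO1, BLM, RBBP8 and NBN) and 2 in RBE (EXO1 and BLM). EXO1, the nuclease of long-range resection (chromosome 1, 241847967 to 241895148, plus strand), was at 62.7, 57.5 and 51.6 CPM in HCCC9810 control and at 24.1, 18.1 and 30.9 CPM in treated libraries. In RBE it was at 42.4, 45.9 and 40.9 CPM in control and at 18.2, 19.6 and 16.2 CPM in treated libraries. Every treated library was below every control by more than 20 CPM, with changes of -1.23 ± 0.16 (adjusted p = 0.000113) and -1.25 ± 0.16 (adjusted p = 9.43e-05), and the difference between lines was -0.02 ± 0.22 (95% interval -0.46 to 0.42). BLM, the helicase that works with EXO1 and dissolves joined molecules, fell by 1.04 ± 0.17 and 0.79 ± 0.16. RBBP8 (CtIP), which starts resection, fell by 0.94 ± 0.22 in HCCC9810 (82.8 ± 18 to 43.2 ± 9.80 CPM), while in RBE it stood at 20.8 ± 2.88 and 16.4 ± 4.35 CPM (-0.33 ± 0.22, adjusted p = 0.349).

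NBN and RAD50 belong to the complex that first binds the broken end. NBN fell by 0.78 ± 0.25 in HCCC9810 (adjusted p = 0.0392), although control 7 at 41.7 CPM lay below anlotinib 11 at 42.9 CPM. That call ended without RBE control 1 (0.0517), HCCC9810 control 8 (0.134), control 9 (0.132), anlotinib 10 (0.116) or anlotinib 12 (0.0874). It also ended with limma on log2(RPKM + 1) (0.0637) or log2(RPKM + 0.1) (0.151). In RBE, NBN did not pass by edgeR, but passed as lower after the GC and length correction (0.0125). RAD50 did not pass in either line (-0.46 ± 0.30 and 0.28 ± 0.28), and 79.7% of its exon bases are shared with other annotated genes.

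Of the 8 core complex genes, 2 were lowered in HCCC9810 (FANCB and FANCG) and 4 in RBE (the same pair, FANCA and FANCC). FANCB, an X-linked scaffold of the complex and the member with the lowest CPM in both treated groups, was at 3.56, 4.72 and 4.87 CPM in HCCC9810 control and at 2.12, 2.27 and 1.49 CPM with anlotinib. In RBE it was at 2.97, 3.88 and 2.20 CPM in control and at 1.76, 1.53 and 0.922 CPM with anlotinib. The treated libraries were all below the controls, with changes of -1.16 ± 0.27 (adjusted p = 0.00716) and -1.03 ± 0.26 (adjusted p = 0.0126). FANCG, an adaptor within the complex, held 65.0, 55.6 and 53.6 CPM in HCCC9810 control and 40.5, 30.2 and 41.3 CPM in treated libraries. RBE held 25.6, 21.7 and 30.8 CPM of FANCG in control and 13.4, 12.7 and 13.1 CPM in treated libraries. The treated RBE libraries lay within 1 CPM of each other and far below control, and the changes were -0.64 ± 0.15 (adjusted p = 0.00655) and -0.99 ± 0.15 (adjusted p = 0.000359).

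FANCA fell by 0.63 ± 0.13 in RBE (adjusted p = 0.00343) and stood at -0.36 ± 0.13 in HCCC9810, just short of the threshold (adjusted p = 0.0547). It passed there with library totals as scaling (0.0156), with a stricter low-count filter (0.0421), after the GC and length correction (0.00529), with limma on log2(RPKM + 1) (0.0196) and without anlotinib 12 (0.0456). FANCA shares 23.6% of its exon bases with ZNF276, which did not pass in either line (-0.01 ± 0.15 and 0.23 ± 0.14). FANCC fell by 0.55 ± 0.14 in RBE (adjusted p = 0.0128), a call that ended without RBE control 1 (0.0617), control 3 (0.0739) or anlotinib 4 (0.0688). It also ended with limma on log2(RPKM + 0.1) (0.0753). The ubiquitin ligase FANCL and the translocase FANCM, which brings the complex to DNA, stood at -0.64 ± 0.23 and -0.94 ± 0.35 in HCCC9810 and at -0.18 ± 0.23 and -0.46 ± 0.31 in RBE, none of which passed by edgeR. Both passed in HCCC9810 under several alternatives. FANCL did so with DESeq2 (0.0458), without a low-count filter (0.00248), with limma on log2(RPKM + 1) (0.0478), and without RBE anlotinib 6 (0.041) or HCCC9810 anlotinib 12 (0.0221). FANCM did so with DESeq2 (0.0267), without a low-count filter (0.000281), after the GC and length correction (0.0495), and without HCCC9810 control 7 (0.0074) or control 7 and RBE anlotinib 6 (0.00344). FANCL shares 19.7% of its exon bases with VRK2 and another annotated gene, and VRK2 did not pass in either line (-0.43 ± 0.18 and 0.13 ± 0.19). FANCE and FANCF did not pass in either line, with changes from -0.35 to 0.04, and FANCF shares 11.3% of its exon bases with GAS2 (-1.41 ± 0.68 and -0.26 ± 0.30, neither passing).

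FANCD2 and FANCI form the clamp that the core complex marks with ubiquitin. FANCI, the most abundant member by CPM in all 4 groups, was at 79.0, 92.2 and 85.4 CPM in HCCC9810 control and at 54.1, 54.6 and 66.1 CPM with anlotinib. In RBE it was at 107, 114 and 90.2 CPM in control and at 57.4, 62.6 and 46.6 CPM with anlotinib. It was lowered in both lines without overlap, by 0.55 ± 0.13 (adjusted p = 0.00835) and 0.90 ± 0.13 (adjusted p = 0.000299). FANCD2 (chromosome 3, 10026414 to 10101930, plus strand) held 46.9, 46.3 and 45.6 CPM in RBE control and 21.3, 23.3 and 19.7 CPM in RBE anlotinib libraries. HCCC9810 held 33.7, 35.2 and 30.6 CPM in control and 29.7, 19.6 and 29.7 CPM in treated libraries. The RBE groups were far apart, a change of -1.11 ± 0.14 (adjusted p = 0.000112). In HCCC9810 the ranges were also apart, but by under 1 CPM, and the change of -0.33 ± 0.15 did not pass (adjusted p = 0.107).

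MUS81 and EME1 are the subunits of a nuclease that cuts stalled forks and joined molecules, and they were the members raised in HCCC9810. MUS81 (chromosome 11, 65857126 to 65867653, plus strand) was at 33.1, 29.4 and 25.8 CPM in HCCC9810 control and at 48.5, 44.5 and 44.5 CPM with anlotinib. In RBE it was at 42.1, 33.9 and 42 CPM in control and at 35.0, 35.8 and 40.8 CPM with anlotinib. The HCCC9810 groups were far apart (0.64 ± 0.13, adjusted p = 0.00245) and the RBE groups overlapped (-0.08 ± 0.12, adjusted p = 0.718). EME1 (chromosome 17, 50373220 to 50381483, plus strand) held 18, 16.5 and 15.1 CPM in HCCC9810 control and 22.7, 19.2 and 22.8 CPM in treated libraries. RBE held 24.1, 22.3 and 25.5 CPM of EME1 in control and 13.5, 14.5 and 14.5 CPM in treated libraries. Within each line, control and treated libraries did not overlap. EME1 rose by 0.39 ± 0.12 in HCCC9810 (adjusted p = 0.0314) and fell by 0.76 ± 0.12 in RBE (adjusted p = 0.000452).

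The rise of EME1 was the less firm of the pair: it ended without RBE control 1 (0.0535), HCCC9810 control 8 (0.0982), control 9 (0.149), anlotinib 10 (0.089) or anlotinib 12 (0.104), and when HCCC9810 was fitted by itself (0.0615). The rise of EME1 also ended without a low-count filter (0.0796) and with limma on log2(RPKM + 0.1) (0.065). MUS81 shares 14.1% of its exon bases with CFL1 and EFEMP2, and EME1 16.4% with LRRC59. In HCCC9810 these neighbours stood at -0.04 ± 0.11, -0.04 ± 0.23 and 0.02 ± 0.11 and did not pass. In RBE, CFL1 fell by 0.70 ± 0.11 (adjusted p = 0.00054).

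Of the 4 checkpoint kinases, ATM was lowered in HCCC9810 and CHEK1 and CHEK2 in RBE. ATM, which responds to broken ends, was at 40, 70.8 and 73.8 CPM in HCCC9810 control and at 16.4, 30.9 and 24.3 CPM with anlotinib. In RBE it was at 34.5, 50.5 and 22.8 CPM in control and at 40.9, 38.8 and 19.2 CPM with anlotinib. The HCCC9810 groups were apart (-1.36 ± 0.37, adjusted p = 0.0197) and the RBE groups overlapped widely (-0.11 ± 0.36, adjusted p = 0.884). The HCCC9810 call ended without control 8 (0.0691), control 9 (0.0769), anlotinib 10 (0.057) or anlotinib 12 (0.0576). It also ended without a low-count filter (0.102) and with limma on log2(RPKM + 0.1) (0.0783). The difference between the lines was 1.25 ± 0.51 and did not pass (adjusted p = 0.11), although it passed without RBE anlotinib 6 (0.042).

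ATR, which responds to stalled forks, held 44.3, 57.9 and 56.4 CPM in HCCC9810 control and 16.2, 38.4 and 32.3 CPM in treated libraries. RBE held 37.4, 38.2 and 23.5 CPM of ATR in control and 38.0, 36.9 and 21.4 CPM in treated libraries. In HCCC9810 the ranges were apart, but anlotinib 10 was far below the other treated libraries and the change of -0.87 ± 0.31 did not pass (adjusted p = 0.0615). In HCCC9810 it passed with DESeq2 (0.019), without a low-count filter (0.025) or with a stricter one (0.0498), with limma on log2(RPKM + 1) (0.0482), and after the GC and length correction (0.0471). It also passed without RBE anlotinib 6 (0.0443), without that library and HCCC9810 control 7 (0.041), or without HCCC9810 anlotinib 11 (0.0378). In RBE the ranges overlapped almost fully (-0.03 ± 0.30, adjusted p = 0.968). Another annotated gene shares 16.4% of the exon bases of ATR.

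CHEK1, the kinase that ATR activates, was at 23.8, 28.7 and 21.8 CPM in RBE control and at 17.5, 15.4 and 15 CPM with anlotinib. In HCCC9810 it was at 52.9, 62.4 and 59.6 CPM in control and at 39.8, 46.8 and 49.4 CPM with anlotinib. The ranges were apart in both lines. The change passed in RBE (-0.63 ± 0.13, adjusted p = 0.00383) and missed the threshold in HCCC9810 (-0.36 ± 0.13, adjusted p = 0.054). There it passed without control 7 (0.0449), without it and RBE anlotinib 6 (0.0252), with library totals as scaling (0.0372), with a stricter low-count filter (0.0461) and with limma on log2(RPKM + 1) (0.0391). CHEK2, the kinase that ATM activates, held 10.6, 9.44 and 10.6 CPM in RBE control and 6.78, 6.06 and 6.02 CPM in treated libraries, and 7.39, 8.43 and 9.26 CPM in HCCC9810 control against 8.49, 5.79 and 5.26 CPM in treated libraries. RBE was without overlap (-0.70 ± 0.17, adjusted p = 0.00906). In HCCC9810 anlotinib 10 lay among the controls (-0.37 ± 0.18, adjusted p = 0.142), with a pass when it was left out (0.0313). CHEK2 also passed in HCCC9810 after the GC and length correction (0.0432).

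The test of the difference between the lines asked which members responded unequally. Of the 34 members 5 passed (14.7%, where 16.6% of all tested genes passed in either direction), a share close to that of all genes. All 5 were lower in RBE relative to HCCC9810, a direction called in 7.66% of all genes, and none was higher (8.92% of all genes). DESeq2 called 1 member higher, and 1 (ATM) was higher by edgeR at an unadjusted p below 0.05. They were EME1 (-1.14 ± 0.17, adjusted p = 0.000572), RAD54L (-1.10 ± 0.22, adjusted p = 0.00409), MUS81 (-0.72 ± 0.18, adjusted p = 0.0138), FANCD2 (-0.77 ± 0.20, adjusted p = 0.0199) and RAD51C (-0.62 ± 0.18, adjusted p = 0.0307). EME1 and RAD54L passed in all 21 alternatives. MUS81 was lost without RBE control 1 (0.0521), control 3 (0.0505), anlotinib 4 (0.055) or anlotinib 5 (0.0518) or HCCC9810 control 9 (0.0552). FANCD2 was lost without RBE anlotinib 4 (0.0507) or HCCC9810 control 9 (0.0568) or anlotinib 12 (0.0529). With limma on log2(RPKM + 0.1) both MUS81 (0.0549) and FANCD2 (0.153) were lost. RAD51C was lost in 9 alternatives, with an adjusted p of up to 0.109.

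This count moved with the libraries that were left out. It stayed at 5 without HCCC9810 control 7 alone and was 2 without RBE anlotinib 4 or without HCCC9810 control 9. Without RBE anlotinib 6 alone 8 members passed, and without it and HCCC9810 control 7 there were 13. The 6 then lower in RBE relative to HCCC9810 were the 5 above and FANCC, and the 7 then higher were ATM, BRCA2, BRIP1, NBN, PALB2, RAD50 and RBBP8. Over all genes the number rose from 2990 to 6413. After the correction for GC content and length 8 members passed, all lower, and none of these 7 was among them.

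**Figure D2:**
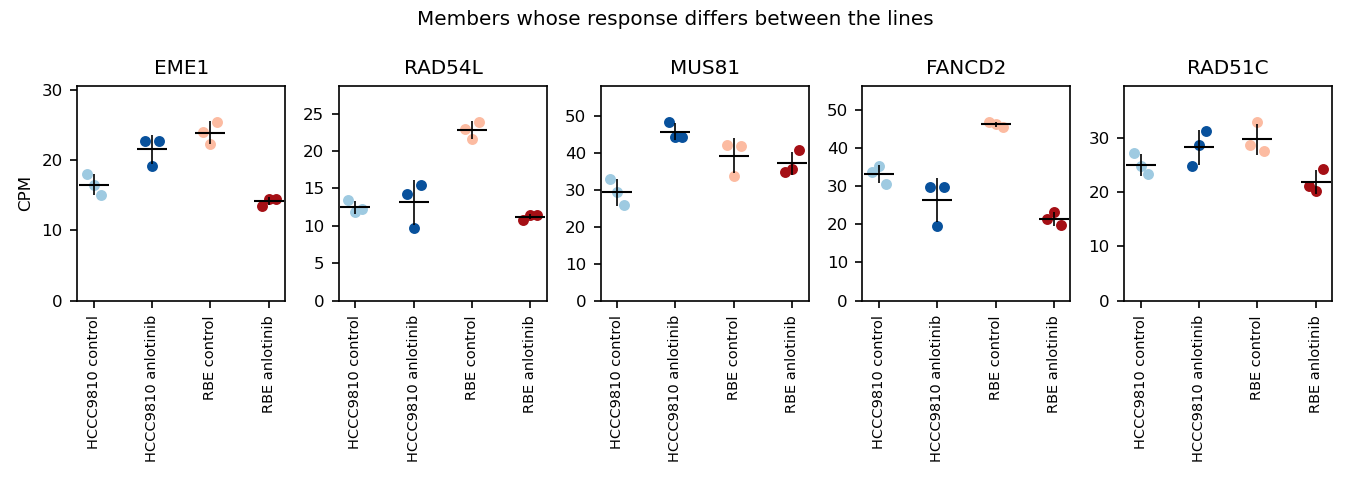
CPM of the 5 members whose response differed between the lines, per library (points), with the group mean and SD (n = 3). EME1 and MUS81 are higher with anlotinib in HCCC9810, and all but MUS81 are lower with anlotinib in RBE.

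**Figure D3:**
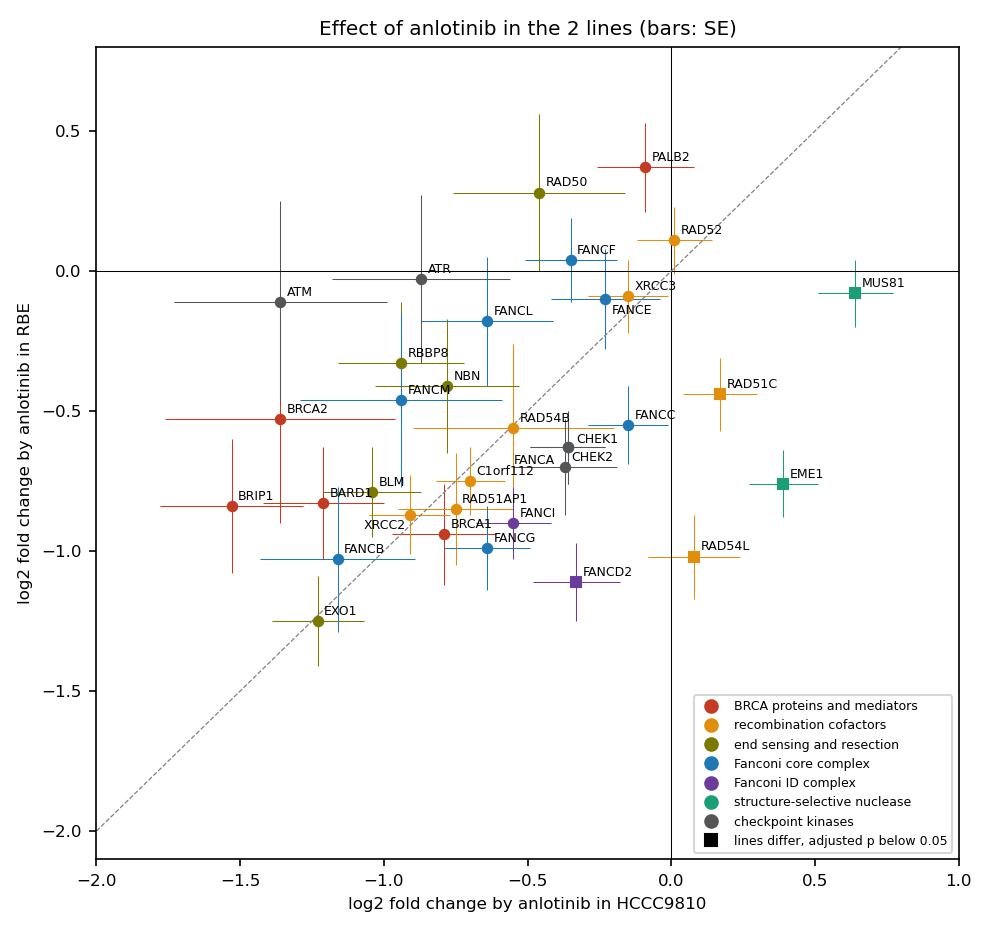
Log2 fold change by anlotinib in RBE against that in HCCC9810 for each member, with SE bars, and the line of equal effects dashed. Squares are the 5 members that passed the test of the difference. EXO1 lies near the dashed line at -1.23 and -1.25, whereas RAD54L lies at 0.08 and -1.02.

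In untreated cells the members spanned 0.581 ± 0.197 RPKM (RAD54B) to 20.6 ± 5.97 RPKM (RAD51AP1) in HCCC9810 and 0.841 ± 0.0952 RPKM (RAD50) to 13.9 ± 1.77 RPKM (FANCI) in RBE, on a scale per length that allows genes to be set beside each other. The order in HCCC9810 went from RAD51AP1 to RBBP8 (15.8 ± 4.05), FANCG (15.5 ± 0.912), EXO1 (13.3 ± 0.866) and FANCL (12.9 ± 0.882), where neighbours lay within the larger SD of each pair except FANCG and EXO1. In RBE it went from FANCI to RAD51AP1 (11.9 ± 2.47), EXO1 (10.8 ± 0.726) and NBN (10.5 ± 2.16), where neighbours lay within the larger SD of each pair. BRCA1 was at 5.74 ± 0.877 and 7.21 ± 1.23 RPKM and BRCA2 at 1.57 ± 0.636 and 1.86 ± 0.681 RPKM, and neither differed between the lines by the test (0.23 ± 0.18 and 0.14 ± 0.37).

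Between the controls 12 members were lower and 7 higher in RBE than in HCCC9810, 55.9% of members where 64.1% of all tested genes were called (32.6% lower and 31.5% higher). The balance turned under some alternatives: library totals gave 7 lower and 9 higher, limma on log2(RPKM + 1) 6 and 9, the fit without a low-count filter 7 and 8, and limma on log2(RPKM + 0.1) 6 and 7, whereas the DESeq ratio method gave 9 and 8 and DESeq2 11 and 8. The GC and length correction gave 15 lower and 7 higher. FANCI was not called here but was higher in RBE under several alternatives, among them the DESeq ratio method (0.0428), library totals (0.0363) and DESeq2 (0.0389). ATM and ATR, also not called, were lower with DESeq2 (0.0358 and 0.0392) and after the GC and length correction (0.000527 and 0.00312). RBBP8 differed most, from 82.8 ± 18 CPM in HCCC9810 to 20.8 ± 2.88 CPM in RBE (-1.99 ± 0.23, adjusted p = 3.39e-06). CHEK1 (58.3 ± 4.89 and 24.8 ± 3.56 CPM, -1.24 ± 0.13, adjusted p = 7.54e-07) and FANCG (58.1 ± 6.10 and 26.0 ± 4.56 CPM, -1.15 ± 0.15, adjusted p = 5.9e-06) were also lower in RBE. RAD51AP1 (-0.89 ± 0.20), FANCL (-0.89 ± 0.23) and XRCC2 (-0.57 ± 0.13) were lower too. RAD54L (0.87 ± 0.15, adjusted p = 0.000118), FANCF (0.71 ± 0.16), EME1 (0.54 ± 0.12), XRCC3 (0.52 ± 0.13), FANCD2 (0.48 ± 0.14), MUS81 (0.42 ± 0.12) and BLM (0.42 ± 0.16) were higher in RBE. These control libraries also enter the test of the difference, so the values are given side by side. EME1 went from 16.5 ± 1.47 to 21.6 ± 2.05 CPM in HCCC9810 and from 24.0 ± 1.61 to 14.2 ± 0.565 CPM in RBE. RAD54L stood at 12.4 ± 0.832 and 13.1 ± 3.07 CPM in HCCC9810 and went from 22.8 ± 1.15 to 11.2 ± 0.421 CPM in RBE.

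The other control differences were small, PALB2 (-0.49 ± 0.17), FANCE (-0.46 ± 0.19), EXO1 (-0.41 ± 0.16), FANCC (-0.39 ± 0.14), FANCA (-0.38 ± 0.13) and C1orf112 (-0.30 ± 0.12). They were lost in 7, 17, 15, 12, 11 and 18 of 21 alternatives, in that order, and BLM in 5. Among these, leaving out HCCC9810 control 7 gave adjusted p values of 0.384 for FANCE, 0.164 for EXO1, 0.243 for FANCC, 0.21 for FANCA and 0.326 for C1orf112, and leaving out HCCC9810 control 8 gave 0.107 for PALB2.

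**Figure D4:**
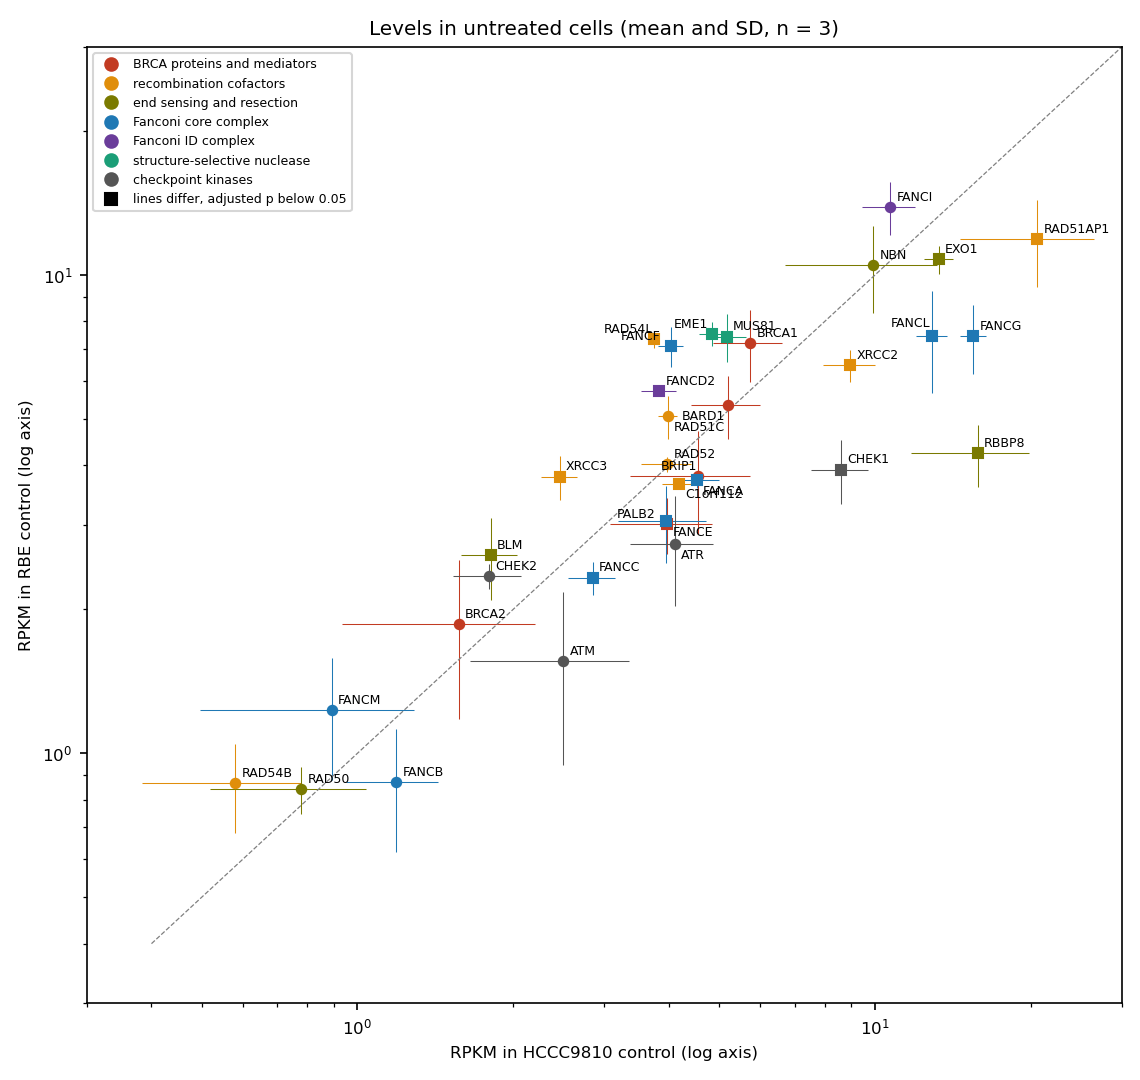
Mean RPKM of each member in RBE control against HCCC9810 control on log axes, with SD bars (n = 3) and the line of equal levels dashed. Squares are members that differ between the controls, among them RBBP8 (15.8 and 4.24 RPKM) and CHEK1 (8.61 and 3.92 RPKM) below the line.

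Related genes outside the 34 members were counted from lists of the same pathways, to be read against the shares of all tested genes, 12.8% lowered and 11.1% raised in HCCC9810 and 8.32% lowered and 9.37% raised in RBE. Of 56 tested genes in a further list of recombination and Fanconi genes, 14 were lowered and 3 raised in HCCC9810 (median -0.33), and 18 were lowered and 1 raised in RBE (median -0.36). FIGNL1, the partner of C1orf112, fell by 0.99 ± 0.14 in HCCC9810, as did the resection nuclease DNA2 by 1.15 ± 0.19. MAD2L2 rose in HCCC9810 by 0.81 ± 0.16 (adjusted p = 0.00278). In RBE the core complex subunit CENPX (-0.98 ± 0.14) and the helicase MCM8 (-0.83 ± 0.16) fell. UBE2T, the ubiquitin-conjugating enzyme that acts with FANCL on FANCD2, was lower in RBE relative to HCCC9810 by the test of the difference (-1.37 ± 0.22, adjusted p = 0.000989), as EME1 and RAD54L were. ABRAXAS1 was higher by the same test (1.32 ± 0.27, adjusted p = 0.00478).

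Of 19 checkpoint adaptors and clamps, 5 were lowered in HCCC9810 (median -0.18) and 9 in RBE (median -0.40). None was raised by edgeR, where 1 in each line was higher at an unadjusted p below 0.05, and DESeq2 raised 1 in RBE. CLSPN, the adaptor through which ATR activates CHEK1, fell by 1.68 ± 0.16 in HCCC9810 (adjusted p = 5.84e-06), and the histone gene H2AFX fell by 1.56 ± 0.18 in RBE. Of 19 E2F and DREAM factors, which govern cell cycle genes, 5 were lowered and 3 raised in HCCC9810 and 8 lowered in RBE. The raised share in HCCC9810 was near the 11.1% of all genes. The repressor E2F8 fell in both lines (-1.42 ± 0.14 and -1.46 ± 0.14). FOXM1 (-1.70 ± 0.17) and MYBL2 (-1.58 ± 0.23) were lower in RBE relative to HCCC9810 by the test of the difference, whereas E2F7 was higher (1.01 ± 0.20, adjusted p = 0.00374). The effects in RBE were -0.93 ± 0.12 for FOXM1 and -1.10 ± 0.16 for MYBL2. Both are smaller in size than the differences, so the estimates for these 2 genes in HCCC9810 were positive. In other repair pathways, 3 and 4 of 14 end-joining genes were lowered (HCCC9810 and RBE), and 3 and 1 of 7 mismatch repair genes. Of 15 nucleotide excision repair genes, 3 and 1 were raised. Mismatch and excision repair in RBE, with 1 gene each, were nearest the shares of all genes (8.32% lowered and 9.37% raised). The other shares lay above those of all genes (12.8% lowered and 11.1% raised in HCCC9810). No excision repair gene was lowered in either line by edgeR or DESeq2, with 1 lower in HCCC9810 at an unadjusted p below 0.05. CDK12 with its cyclin CCNK and the related CDK13, known to sustain transcription of long repair genes, had 0 calls among the 3 in either line by edgeR or DESeq2, and 0 at an unadjusted p below 0.05.

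Since GC content moved with the libraries, the member effects were set against it. In HCCC9810 the log2 fold change of the 34 members rose with GC content (Spearman's rho 0.731 across members, which share libraries and depth), and in RBE it did not follow it (0.0955). The 18 members under 42% GC had a median of -0.89 in HCCC9810 and the other 16 a median of -0.19, against -0.60 and -0.59 in RBE. With GC content and length corrected in each library, the HCCC9810 medians were -0.61 and -0.28 and rho was 0.529. Over all genes, on which the correction was fitted, rho went from 0.296 to 0.0242, a fall that the fit itself brings about. The corrected fit lowered 20 members and raised 2 in HCCC9810, and lowered 21 and raised 1 in RBE. With the correction ATM went from -1.36 to -0.90, BRCA2 from -1.36 to -0.92 and RAD51AP1 from -0.75 to -0.41 in HCCC9810, whereas EXO1 went from -1.23 to -1.15. The correction also takes out any GC-linked difference between the groups, so the part of GC content in these differences was not tested.

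**Figure D5:**
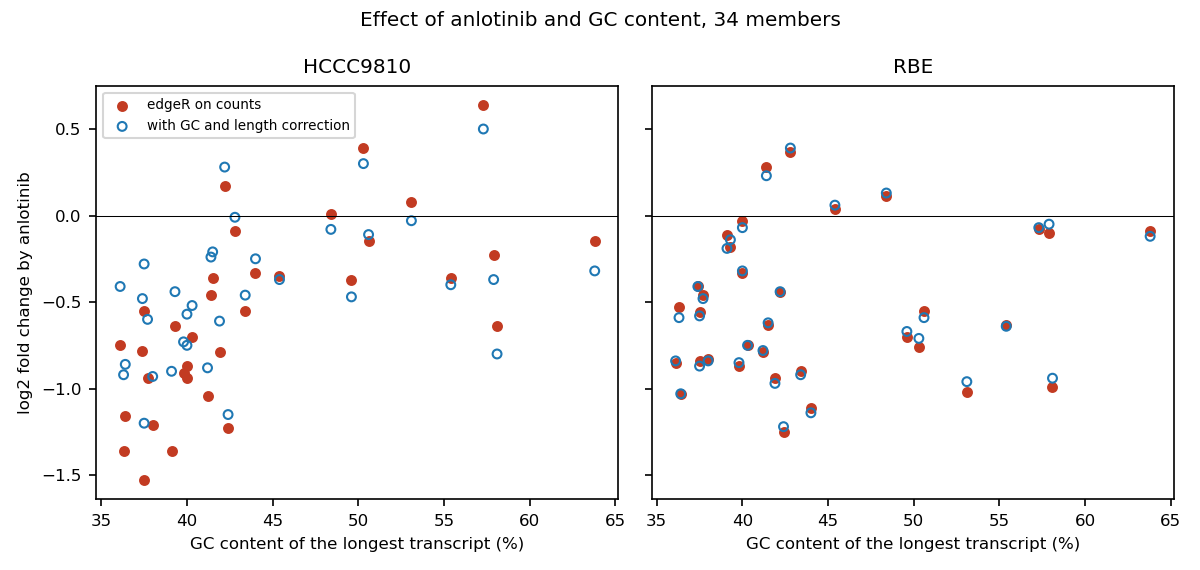
Log2 fold change by anlotinib against the GC content of the longest transcript for the 34 members, in HCCC9810 (left) and RBE (right), from the counts (filled) and after correction for GC content and length (open). In HCCC9810 the filled points rise with GC content and the open points less so, and in RBE the filled and open points nearly coincide.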

How the data were processed

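RNA sequencing libraries of 4 groups, 3 each, were analysed from the deposited table of counts and RPKM for 58216 genes. Per the submitters' processing notes HISAT2 and GRCh38 were used. For tool versions, the counting program, its annotation and its strand setting, nothing is given in the sources used here. Per the file headers, the authors' counts are whole numbers without scaling, and the deposited RPKM equal count over gene length and column total, within 0.039%.

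Counts were tested with edgeR 4.0.16 in R 4.3.3: expression filter (18035 genes), TMM scaling, 4 group means over 12 libraries, robust quasi-likelihood F-tests, two-sided, Benjamini-Hochberg adjustment over all tested genes, called at an adjusted p below 0.05. The SE is the unshrunk log2 fold change over the square root of F, and CPM use TMM-scaled totals. Contrasts were anlotinib against control in each line, their difference (RBE minus HCCC9810) and the controls. Alternatives were DESeq2 1.42.0, limma 3.58.1 on log2(RPKM + 1) and log2(RPKM + 0.1), other scalings and filters, a GC and length correction (splines, 5 df), each line alone, and leaving out libraries. Annotation, GC content and exon overlap are from GENCODE 29, which held all 58216 identifiers, and promoters from RefSeq on GRCh38.p14. FANCI, NBN and RAD54B were not matched there. Where counting ignored strand, reads of overlapping genes cannot be assigned, so overlaps above 10% of exon bases are given for members named with a result.

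The members and lists were chosen with earlier results of these data known. A gene of a further list is not reported here. Per-library values are given for the 5 largest called changes per line, the 5 smallest p of the difference, and BRCA1, BRCA2, ATM, ATR, CHEK1, CHEK2, FANCD2 and FANCI. For each other list up to 3 called genes with the smallest p qualified for naming. Replicate pairs differed by more than counting noise (chi-square per degree of freedom 3.52 to 46.3), and no batch is labelled. The procedure was run on simulated counts drawn independently for each gene and library. These lacked the GC-linked axis of the replicates, so how the calls fare under that axis was not tested by them.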

Additional observations from a re-analysis of the deposited data

Results flagged for a closer look

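The effect of anlotinib differed between the lines, by the interaction test, for 5 members. The difference (RBE minus HCCC9810, log2) was -1.14 for EME1, -1.10 for RAD54L, -0.77 for FANCD2, -0.72 for MUS81 and -0.62 for RAD51C. Groups of 3 libraries were too small for a test of single outlying libraries.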

How the results depend on the processing

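No member with a call changed direction in any of the alternatives run. In HCCC9810, 183 of the results for called members kept their side of the threshold and 21 lost it when single libraries were left out, and 158 kept and 12 lost it under the other settings. In RBE the counts were 218 and 10, then 179 and 11; in the controls 179 and 49, then 135 and 36; in the difference 44 and 16, then 42 and 3. The counts for single libraries cover all 12, and libraries of the other line enter the effect in a line only through the shared fit. Among them every loss in RBE came from an RBE library. Every loss in HCCC9810 came from an HCCC9810 library, except those of NBN and EME1 without RBE control 1. With limma on log2(RPKM + 0.1) without a filter, 11 members were called in HCCC9810, 10 in RBE and 2 in the difference, and 1636 of all genes in the difference. The GC and length correction gave 8 members in the difference and 4790 of all genes in RBE. Without RBE anlotinib 6 and HCCC9810 control 7, 13 members and 6413 of all genes were called in the difference. Leaving out single libraries gave 12 to 19 members and 2407 to 5043 genes in HCCC9810, 16 to 20 members and 1868 to 3750 genes in RBE, 12 to 20 members and 10747 to 12278 genes in the controls, and 2 to 8 members and 1473 to 4865 genes in the difference. The lowest member counts in HCCC9810 came without control 8 or control 9 (12 each). The cause was not tested. No paired analysis was possible because the groups share no replicate numbers. Scaling by library totals moved the median log2 change of all genes in the difference from 0.09 to 0.22. Member counts ran from 17 to 2984 per library, which limits the precision of the lowest.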
